A study of Mus musculus with 4 samples.

Results

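Ribosome biogenesis genes of the nucleolus, together with Myc, were compared between CD11b-positive and CD11b-negative IgA+ cells of the mouse small intestine. The set held 35 genes: proteins of the nucleolus, proteins of small nucleolar ribonucleoproteins (snoRNPs), subunits of RNA polymerase I, factors that process the ribosomal RNA precursor, and Myc. They were chosen by gene symbol in the annotation of the array, which gave 74 of its 45037 probe sets that are not controls, for 35 of the 18193 genes named by a probe set of their own. Both fractions came from untreated female BALB/c mice of 9 weeks and are marked WT in the sample titles. Each fraction was measured on 2 Affymetrix 3' expression arrays that differ in the labelling kit. The One-Cycle kit was used with 1 µg of RNA for an array of either fraction, and the IVT Express kit with 0.1 µg for the other array of either fraction. Separate animals, pools or sorts are not named in the labels, so the p-values cover the spread among these 4 samples, and that spread may be technical.

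Ribosomes are built in the nucleolus, where RNA polymerase I transcribes the ribosomal RNA precursor. Box C/D and box H/ACA snoRNPs guide the methylation and pseudouridylation of this RNA, and a large set of processing and assembly factors then cuts it and folds it into the small and the large subunit. The transcription factor MYC, as a dimer with MAX, binds the E-box CACGTG and is known to raise the expression of many of these genes in growing cells. In the gut, IgA is made mainly by plasma cells, which secrete large amounts of antibody, and by their dividing precursors, the plasmablasts.

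Signals are given after quantile normalization, and differences are those of log2(signal + 3), CD11b-positive minus CD11b-negative, so folds of weak genes are understated. Itgam, the gene of CD11b, differed by 2.61 (One-Cycle) and 2.57 (IVT Express), in the direction of the labels. Plasma cell genes were bright in all 4 arrays: Jchain, the joining chain of secreted IgA, ran from 11010 to 12633, and Xbp1, a transcription factor of secretory cells, from 8435 to 9033. Pearson's r between arrays ran from 0.933 to 0.958 across 12645 genes, which are not independent replicates. Only 4 arrays limit the precision of every value below. Of the 35 genes, 34 passed the filter on low signals; the remaining one was Rrp9, a U3 snoRNP protein, at 6.55 and 13.1 (CD11b-negative and CD11b-positive) with the One-Cycle kit, then 8.14 and 7.72 with the IVT Express kit.

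Most nucleolar genes stood slightly higher in the CD11b-positive fraction, while Myc itself stood lower, though not on the signals as deposited or after median centring. Of the 34 genes tested, 28 had a higher mean in CD11b-positive cells and 6 a lower one. Their median difference was 0.21 on the log2 scale, a 1.15-fold level, against 0.0027 over all genes tested. Within the kits the median was 0.27 (One-Cycle) and 0.14 (IVT Express). The differences were small: the quartiles were 0.06 and 0.33, 9 genes differed by at least 1.2-fold either way, and 0 reached a log2 difference of 1. Relative to all genes, the median was 0.04 when the CD11b-positive One-Cycle array was left out. All these values are from bulk RNA, in which more cells of a type and more RNA per cell cannot be told apart.

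By limma, with Benjamini-Hochberg adjustment over 12645 genes, 0 of the 34 passed in either direction at an adjusted p under 0.05, and neither did any other gene tested (0% of all genes higher, 0% lower; smallest adjusted p = 0.306). At an unadjusted p under 0.05, 3 of the 34 were higher (Npm1, Ncl and Dkc1) and 0 lower, against 3.14% of all genes higher and 3.52% lower. With the labelling kit as a block in the same model, 5 of the 34 passed as higher, or 14.7%, beside 3.73% of all genes (472 higher). These were Npm1, Ncl, Dkc1, Nhp2 and Ddx21, and 0 passed as lower, beside 4.14% (524 lower). Among brighter genes only, with the low-signal filter at the 70th percentile, 4 of 32 passed as higher, beside 4.69% of all genes. On the signals as deposited the blocked fit called 22 of the 34 as higher, with 3655 genes higher and 154 lower in all, and after median centring 9, with 1732 and 207. That fit keeps only 1 residual degree of freedom and leans on a variance shared across genes: with no trend of variance on signal, it called 0 of the 34 and 0 of all genes. With 2 arrays in each fraction, the smallest p an exact permutation test allows is 0.333, so none is given.

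Within the One-Cycle kit 23 of the 34 genes were higher in CD11b-positive cells, beside 49.1% of all genes, and within the IVT Express kit 24, beside 51.9%. In all, 17 of the 34 genes (50.0%) were higher with both kits, beside 31.6% of all genes. With both kits 4 were lower, beside 30.5%, and 13 took opposite signs, beside 37.8%. The 2 arrays of CD11b-positive cells both lay above the 2 of CD11b-negative cells for 10 genes, beside 18.3% of all genes, and below them for 1, Myc, beside 17.3%. For 20 of the 34 genes the kits differed by more than the fractions did. With the low-signal filter at the 70th percentile, 16 of 32 were higher with both kits, beside 35.7% of all genes.

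**Figure D1:**
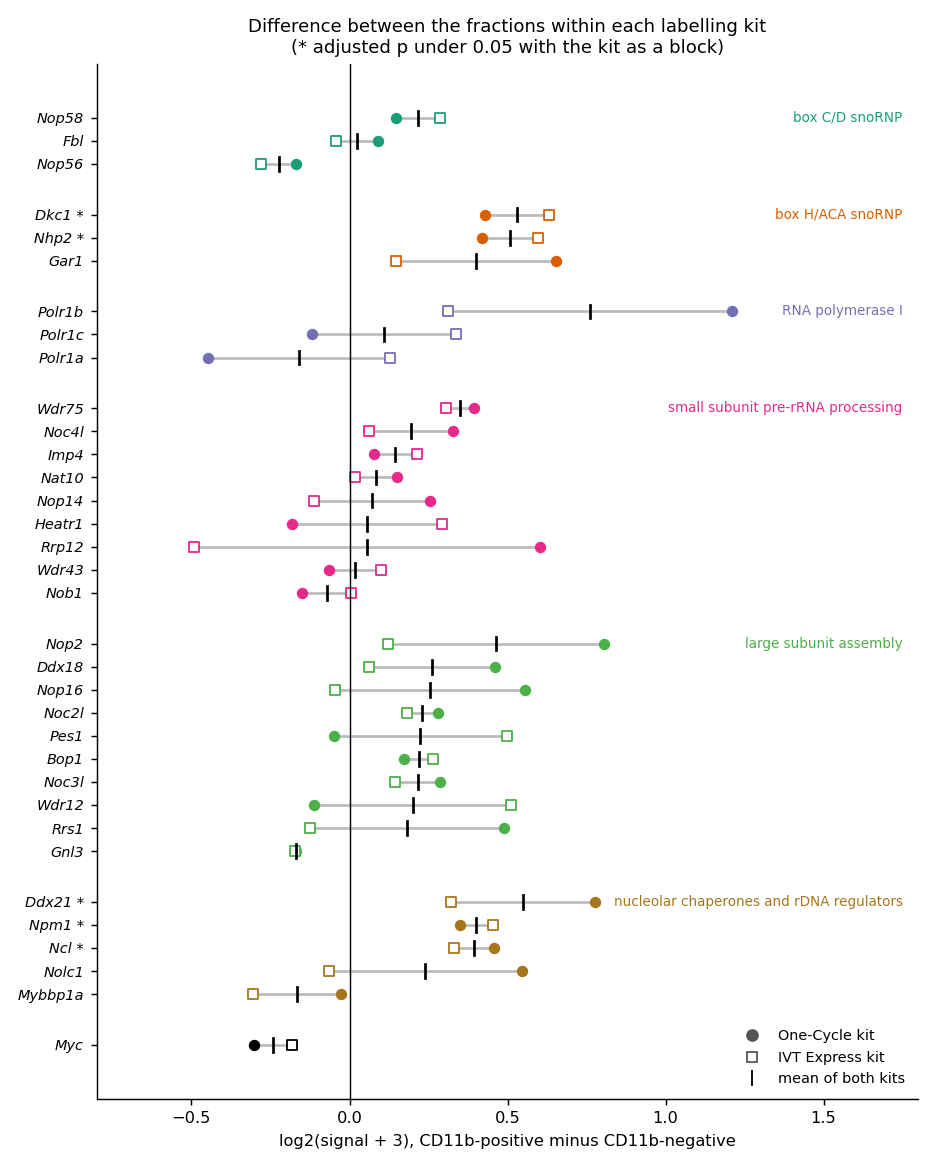
Log2 difference between the fractions (x axis, log2(signal + 3), CD11b-positive minus CD11b-negative) for each gene tested (y axis), grouped by role; filled circles are the One-Cycle kit, open squares the IVT Express kit and black bars the mean of both. The 3 box H/ACA genes lie right of 0 with both kits, Myc lies left of it with both (0.22 on the deposited scaling), and Rrp12 has opposite signs (0.60 and -0.49).

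Npm1 and Ncl, the most abundant nucleolar proteins in many cells, were higher with both kits by similar amounts. Npm1 encodes nucleophosmin, a histone and ribosome assembly chaperone. Its signal was 1361 in CD11b-negative and 1733 in CD11b-positive cells with the One-Cycle kit, then 1312 and 1799 with the IVT Express kit. Both CD11b-positive arrays lay above both CD11b-negative ones. The mean was 1766 ± 46.9 (SD, n = 2) against 1336 ± 34.0 (SD, n = 2), a 1.32-fold level and a log2 difference of 0.40 (SE 0.14, limma adjusted p = 0.690; with the block 0.00616). Ncl encodes nucleolin, a chaperone of nascent ribosomal RNA. It measured 1399 and 1920 with the One-Cycle kit, then 1336 and 1681 with the IVT Express kit, in the same order of fractions. Its arrays did not overlap either, and the log2 difference was 0.39 (SE 0.15, limma adjusted p = 0.728; with the block 0.00729). Each further probe set of these genes above the filter was higher with both kits: 1 of Npm1 (0.44) and 3 of Ncl (0.42 to 1.10). The Ncl probe set with 1.10 may cross-hybridise and had 2.01 with the One-Cycle kit but 0.18 with the IVT Express kit.

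Ddx21, an RNA helicase that acts in both RNA polymerase I transcription and rRNA processing, had 149 in CD11b-negative and 258 in CD11b-positive cells with the One-Cycle kit, then 155 and 195 with the IVT Express kit. The arrays did not overlap, but the difference was 0.78 with the first kit and 0.32 with the second. The mean difference was 0.55, or 1.46-fold (SE 0.23, limma adjusted p = 0.756; with the block 0.0357). Without the CD11b-positive One-Cycle array it was 0.33 relative to all genes. Nolc1, a scaffold of snoRNPs, took opposite signs (0.55 and -0.07). Mybbp1a, which restrains rDNA transcription, was lower with both kits (-0.03 and -0.31) and did not pass with or without the block; a second probe set of it had 0.27.

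All 3 box H/ACA snoRNP genes were higher with both kits, and 2 of them passed with the block. Dkc1 encodes dyskerin, the pseudouridine synthase of these particles and a part of telomerase. Its signal was 171 in CD11b-negative and 231 in CD11b-positive cells with the One-Cycle kit, then 183 and 285 with the IVT Express kit. The arrays did not overlap, and the log2 difference was 0.53, or 1.44-fold (SE 0.22, limma adjusted p = 0.746; with the block 0.0280). The other 2 probe sets of Dkc1 gave 0.64 and 0.99, higher with both kits, and the one with 0.99 may cross-hybridise. Nhp2, a core protein of the same particle, had 407 and 546 with the One-Cycle kit, then 263 and 399 with the IVT Express kit. Here the arrays overlapped, since the CD11b-negative One-Cycle array exceeded the CD11b-positive IVT Express one. The log2 difference was 0.51, or 1.42-fold (SE 0.28, limma adjusted p = 0.839; with the block 0.0100). Relative to all genes it was 0.20 without the CD11b-negative IVT Express array, 0.26 without the CD11b-positive One-Cycle array and 0.84 without the CD11b-negative One-Cycle array. Its probe set may cross-hybridise, and the other probe set had 0.30. Gar1, a small protein that binds dyskerin, had 132 and 209 with the One-Cycle kit, then 147 and 163 with the IVT Express kit. It did not overlap, yet 0.40 (1.32-fold) did not pass with the block (limma adjusted p = 0.185). Its only probe set may cross-hybridise, and without the CD11b-positive One-Cycle array the difference was 0.20 relative to all genes.

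**Figure D2:**
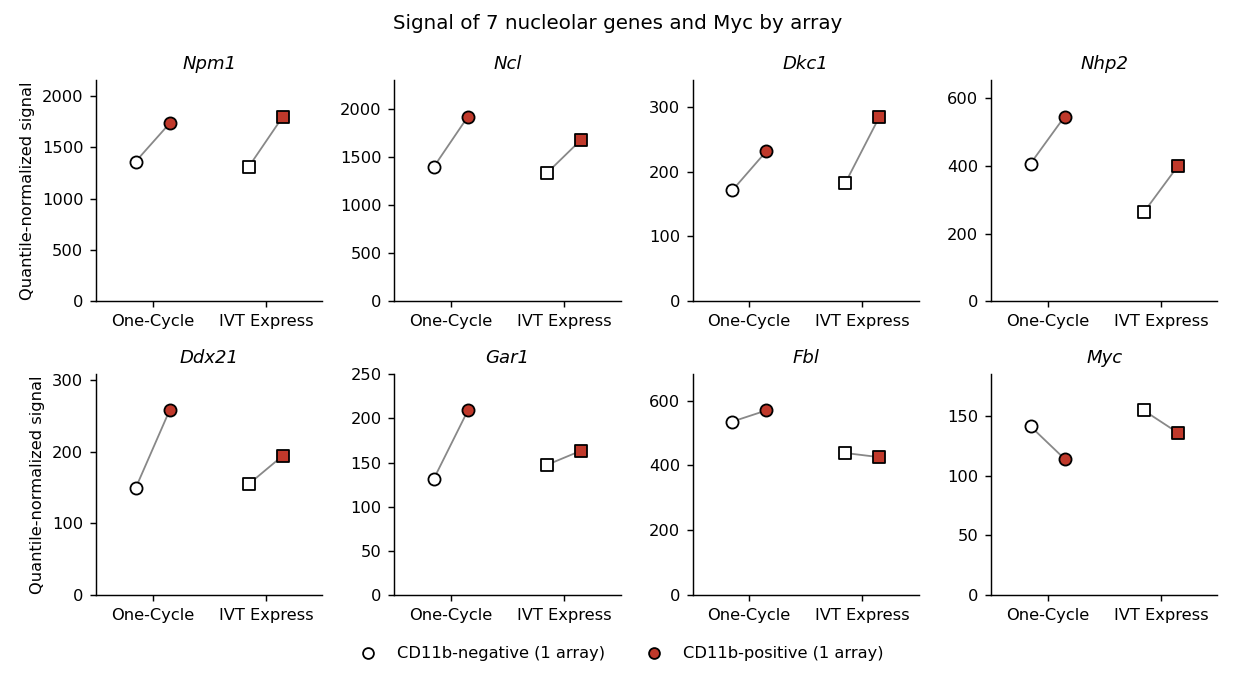
Quantile-normalized signal (y axis, from 0) of 7 nucleolar genes and Myc in the 4 arrays, by labelling kit (x axis); open symbols are CD11b-negative, filled CD11b-positive cells, and a line joins the arrays of a kit. Npm1, Ncl, Dkc1, Nhp2, Ddx21 and Gar1 go up with both kits, Myc goes down with both (0.22 on the log2 scale with the deposited scaling), and Fbl does one with each.

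The box C/D snoRNP genes had no common direction. Fbl encodes fibrillarin, the methyltransferase of these particles, and measured 535 and 570 with the One-Cycle kit, then 438 and 426 with the IVT Express kit. The log2 difference was 0.02, but this probe set may cross-hybridise, and the second probe set of Fbl gave 0.32 and was higher with both kits. Nop56, a core scaffold, had -0.22 and its partner Nop58 0.22, each with the same sign in both kits. None of the 3 passed, with or without the block. A second probe set of Nop56, which may cross-hybridise, had 0.19. The median of the 3 was 0.02, or 0.15 relative to all genes with the mean of all probe sets.

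Of the 3 RNA polymerase I subunits, 1 was higher with both kits and 0 passed with or without the block. Polr1b, the second largest subunit, had 30.9 in CD11b-negative and 75.4 in CD11b-positive cells with the One-Cycle kit, then 27.0 and 34.3 with the IVT Express kit. The arrays did not overlap and the mean log2 difference of 0.76 was the largest of the 34 genes, but most of it came from the One-Cycle kit (1.21 against 0.31; limma adjusted p = 0.840, with the block 0.172). Relative to all genes it was 0.20 without the CD11b-positive One-Cycle array and 1.24 without the CD11b-positive IVT Express array. Polr1a, the largest subunit, had -0.45 and 0.13, and Polr1c, shared with RNA polymerase III, -0.12 and 0.34. The 3 probe sets of Polr1a above the filter disagreed, with -0.16, -0.08 and 2.02. The one with 2.02 had CD11b-negative signals of 3.27 (One-Cycle) and 9.21 (IVT Express), under the filter level of about 9.51. A second probe set of Polr1c, which may cross-hybridise, had 0.35 and was higher with both kits. With the mean of all probe sets, all 3 genes were higher relative to all genes (median 0.58). The Polr1a value there includes the probe set with 2.02.

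For the small subunit factors, 8 of the 9 tested genes had a higher mean in CD11b-positive cells, 4 with both kits, and 0 passed with or without the block. Their median was 0.07. Wdr75, a protein of the early processome, was the only one whose arrays did not overlap, at 127 and 168 with the One-Cycle kit, then 121 and 150 with the IVT Express kit (0.35). Its second probe set had -0.36, with opposite signs in the kits. The others ran from -0.07 for Nob1, the nuclease of the last cleavage of 18S rRNA, to 0.19 for Noc4l, with Wdr43, Heatr1, Nop14, Nat10 and Imp4 between them. These counts rest on the brightest probe set of each gene: with the mean of all probe sets, 4 of the 9 were higher and 5 lower relative to all genes, and the median was -0.02. Further probe sets of Imp4 (-1.26 and -0.12), Nat10 (-1.25) and Heatr1 (-0.33 and -0.45) had the opposite sign to the one used. Those of Noc4l (0.31, 0.37 and 0.52) and Wdr43 (0.32) were higher with both kits. Some signals lay under the filter level of about 9.51. In CD11b-positive cells these were 2.60 (Imp4, -1.26) with the One-Cycle kit, and 2.75 (Heatr1, -0.45) and 9.32 (Nat10) with the IVT Express kit. The Nat10 probe set may also cross-hybridise. Rrp12, an export and maturation factor, took opposite signs and was the 1 gene whose direction relative to all genes turned with the scaling of the arrays.

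For the large subunit factors, 9 of 10 had a higher mean, 5 were higher with both kits and 0 passed with or without the block; the median was 0.22. Nop2, a methyltransferase of 28S rRNA long used as a proliferation antigen, had 44.4 and 79.7 with the One-Cycle kit, then 55.9 and 61.1 with the IVT Express kit. Nop2 (0.46), Noc2l (0.23) and the helicase Ddx18 (0.26) had arrays that did not overlap. Without the CD11b-positive One-Cycle array, Ddx18 had 0.02 and Nop2 0.25 relative to all genes. Of the PeBoW complex, which matures 28S rRNA, Bop1 was higher with both kits (0.22), while Pes1 (-0.05 and 0.50) and Wdr12 (-0.11 and 0.51) were not. Gnl3, known as nucleostemin and the third brightest gene, went the other way, with 632 and 562 with the One-Cycle kit, then 493 and 437 with the IVT Express kit. Its log2 difference was -0.17 with each kit (limma adjusted p = 0.946; with the block 0.471). The remaining 3 genes, Noc3l, Rrs1 and Nop16, lay between 0.18 and 0.26.

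**Figure D3:**
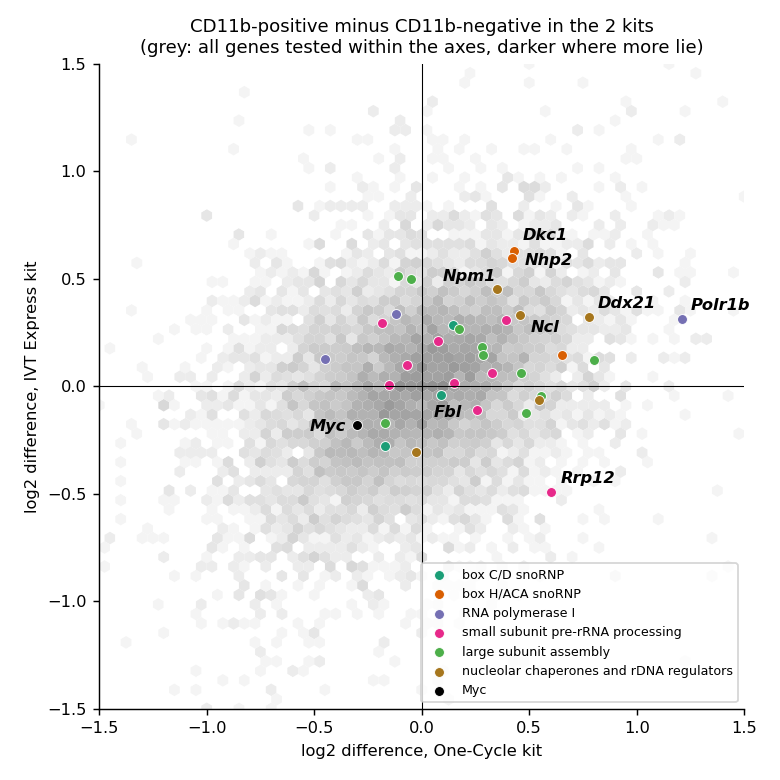
Log2 difference between the fractions with the One-Cycle kit (x axis) and the IVT Express kit (y axis); coloured points are the 34 genes by role and grey shading is the density of all genes tested, 662 of which lie outside the axes. Dkc1, Nhp2, Npm1, Ncl and Ddx21 lie in the upper right, Polr1b far to the right, and Myc in the lower left (0.22 on the deposited scaling).

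Myc was lower in CD11b-positive cells on the normalized scale, though it did not pass. Its signal was 142 in CD11b-negative and 114 in CD11b-positive cells with the One-Cycle kit, then 155 and 136 with the IVT Express kit. Both CD11b-positive arrays lay below both CD11b-negative ones. The log2 difference was -0.24 (SE 0.23, limma adjusted p = 0.923; with the block 0.513). On the signals as deposited it was 0.22, where the median of all genes was 0.42, and after median centring 0.0048, where that median was 0.21. Relative to the median of all genes, Myc was lower under each of the 4 other scalings (-0.25 to -0.20), and -0.15 without the CD11b-positive One-Cycle array. Of 13 genes of the MYC network, 1 (7.69%) passed as higher with the block, beside 3.73% of all genes: the MAX-binding repressor Mnt (0.63, adjusted p = 0.0194). Another repressor, Mxd1, passed as lower (-0.62, adjusted p = 0.0205). Arrays of both genes overlapped, and the kits differed by more (0.96 for Mnt, 0.94 for Mxd1) than the fractions. Without the block the limma adjusted p was 0.880 for each. Max, the partner of MYC, had 0.43 and the MAX-binding Mxd3 0.59; neither overlapped and neither passed. The median of the network was 0.05, or 0.20 relative to all genes without the CD11b-negative IVT Express array.

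The promoters of the nucleolar genes were searched for the E-box and 6 other motifs, since MYC target genes often hold one close to the start. RefSeq sequence of GRCm38.p6, 250 bases before to 50 after the start, was on hand for 29 of the 35 genes; Npm1, Fbl, Myc, Bop1, Rrs1 and Rrp12 had no entry. CACGTG, which reads the same on both strands, was found for 5 of the 29 genes (17.2%) and for 8.09% of all 27025 genes with a promoter entry. Those 27025 genes were not limited to the 12645 tested on the arrays. Shares among the tested genes were not counted, here or for the motifs below. None of the 5 genes passed with the block, beside 14.7% of the 34 genes tested and 3.73% of all genes as higher. At such shares, 5 genes are too few to read this count. The windows of 30 bases around these motifs, with the E-box in capitals, are shown because they are the sites the set shares with the textbook MYC motif; they lie at chr17:71616220-71616249 (Wdr43), chr1:34439696-34439725 (Imp4), chr11:3963965-3963994 (Pes1), chr6:125131811-125131840 (Nop2) and chr11:72441347-72441376 (Mybbp1a), all on the plus strand.
Wdr43: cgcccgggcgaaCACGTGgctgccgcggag
Imp4: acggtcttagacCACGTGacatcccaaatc
Pes1: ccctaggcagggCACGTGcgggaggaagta
Nop2: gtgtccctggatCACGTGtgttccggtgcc
Mybbp1a: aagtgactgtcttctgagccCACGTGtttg

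The E-box began at base 18 after the start in Wdr43, 3 in Pes1 and 41 in Mybbp1a, and before it in Imp4 (-121) and Nop2 (-60). Each of the other motifs was searched on both strands. The related CACGCG was in 27.6% of the members' promoters and 10.5% of all, and CATGTG in 17.2% and 15.9%. The GC box GGGCGG was in 72.4% and 38.2%, CCGGAAG, an ETS-type motif, in 27.6% and 9.93%, CCAAT in 27.6% and 41.1%, and TATAAA in 6.9% and 15.7%. These promoters were also richer in G and C, with a median of 58.0% against 52.7%, and its part in these shares was not tested. The motifs other than CACGTG were chosen after the values were seen. The letters describe these windows and show no binding.

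The whole promoters of the 4 genes that passed with the block and had an entry are given, and none held CACGTG. The capitals mark CACGCG and CATGTG on either strand and GC boxes on either strand. They lie at chrX:75095604-75095903 (Dkc1, plus strand), chr11:51619523-51619822 (Nhp2, plus), chr1:86359406-86359705 (Ncl, minus) and chr10:62602249-62602548 (Ddx21, minus), and are written 5′ to 3′ along the gene.
Dkc1: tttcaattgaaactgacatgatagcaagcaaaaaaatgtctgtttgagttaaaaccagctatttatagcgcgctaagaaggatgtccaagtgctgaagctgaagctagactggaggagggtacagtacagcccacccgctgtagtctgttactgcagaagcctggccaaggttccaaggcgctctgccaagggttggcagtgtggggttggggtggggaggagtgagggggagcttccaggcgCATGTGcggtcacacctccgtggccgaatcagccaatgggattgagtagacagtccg
Nhp2: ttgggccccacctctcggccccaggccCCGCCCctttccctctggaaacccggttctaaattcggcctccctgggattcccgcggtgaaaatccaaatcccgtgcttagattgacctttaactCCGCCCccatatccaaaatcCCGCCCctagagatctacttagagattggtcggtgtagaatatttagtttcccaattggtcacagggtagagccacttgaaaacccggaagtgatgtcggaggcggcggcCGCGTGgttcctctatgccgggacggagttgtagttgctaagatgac
Ncl: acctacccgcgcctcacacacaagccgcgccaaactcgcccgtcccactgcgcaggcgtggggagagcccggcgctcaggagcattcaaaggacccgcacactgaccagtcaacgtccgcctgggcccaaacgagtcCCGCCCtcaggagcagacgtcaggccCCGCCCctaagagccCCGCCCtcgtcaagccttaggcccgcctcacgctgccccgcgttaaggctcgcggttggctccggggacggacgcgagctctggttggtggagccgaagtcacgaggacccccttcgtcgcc
Ddx21: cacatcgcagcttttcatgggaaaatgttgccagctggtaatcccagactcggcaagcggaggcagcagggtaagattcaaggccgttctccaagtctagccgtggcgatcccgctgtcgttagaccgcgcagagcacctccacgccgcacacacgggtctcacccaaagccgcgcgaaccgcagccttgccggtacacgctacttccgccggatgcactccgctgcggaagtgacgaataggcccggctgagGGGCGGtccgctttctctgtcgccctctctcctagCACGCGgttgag

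Dkc1 held CATGTG at -7 and no GC box, Nhp2 3 GC boxes and CACGCG, read on the other strand, at 4, Ncl 3 GC boxes and none of the E-box letters searched, and Ddx21 a GC box at 4 and CACGCG at 39. No single motif of those marked was in all 4 promoters. Whether these motifs bear on the differences between the fractions was not tested.

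Genes of the same pathway outside the set had medians between -0.01 and 0.29. Over all genes tested, 31.6% were higher and 30.5% lower with both kits. With the block, 3.73% of all genes passed as higher and 4.14% as lower. Of 33 further small subunit factors, 13 were higher and 6 lower with both kits (median 0.14). Relative to all genes, their median was 0.05 without the CD11b-positive One-Cycle array. With the block 1 passed (3.03%), Ngdn (0.45, adjusted p = 0.0259), on a probe set that may cross-hybridise. Of 38 further large subunit factors, 22 were higher and 8 lower with both kits (median 0.16), and 2 passed (5.26%). They were Eif6, which keeps the large subunit from joining early (0.46, adjusted p = 0.0356), and the assembly factor Nsa2 (0.50, adjusted p = 0.00763). Of 16 further genes of RNA polymerase I transcription, 0 passed as higher and 1 as lower. That was Polr2e, a subunit shared by all nuclear polymerases (-0.59, adjusted p = 0.0108), on a probe set that may cross-hybridise. With both kits 6 of the 16 were higher and 5 lower. Among the higher ones were Taf1d (0.48) and Polr1e (0.58), which did not pass, each on a probe set that may cross-hybridise. The median of the 16 was -0.01. Of 9 further snoRNP genes 0 passed (median 0.17). Relative to all genes, the snoRNP median was 0.08 without the CD11b-positive IVT Express array. Of 13 RNA exosome genes, which trim rRNA ends, 8 were higher and 1 lower with both kits (median 0.29; 0.15 relative to all genes with the low-signal filter at the 70th percentile), and 2 passed, Exosc1 (1.49) and Exosc8 (0.64). Most of the Exosc1 difference came from the One-Cycle arrays (2.47, against 0.51 for IVT Express). Its CD11b-negative One-Cycle signal of 6.93 lay under the filter level of about 9.51. By limma without the block, neither passed (adjusted p = 0.748 for Exosc1, 0.805 for Exosc8).

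Ribosomal proteins, which the pathway builds in, and other MYC targets were counted in the same way. Of 42 cytosolic ribosomal protein genes tested, 34 were higher and 2 lower with both kits (median 0.15), and 7 passed as higher with the block. Among them were Rps2 (0.43, adjusted p = 0.000589) and Rps9 (0.37, adjusted p = 0.00492), each on a probe set that may cross-hybridise. Relative to all genes, the list's median was 0.03 after cyclic loess. Of 27 MYC targets outside the nucleolus, 16 were higher and 4 lower with both kits (median 0.21), and 5 passed as higher. Relative to all genes, that median was 0.05 without the CD11b-positive One-Cycle array and 0.07 without the CD11b-negative IVT Express array. Those that passed include the nuclear transport GTPase Ran (0.51, adjusted p = 0.000622), on a probe set that may cross-hybridise. Its partner Ranbp1 (0.37, adjusted p = 0.0416) and the translation factor Eif4a1 (0.51, adjusted p = 0.00134) passed too. Over all genes, 31.6% were higher with both kits and 3.73% passed as higher with the block. The shares in these lists are a description, since the lists overlap in function and are not independent.

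**Figure D4:**
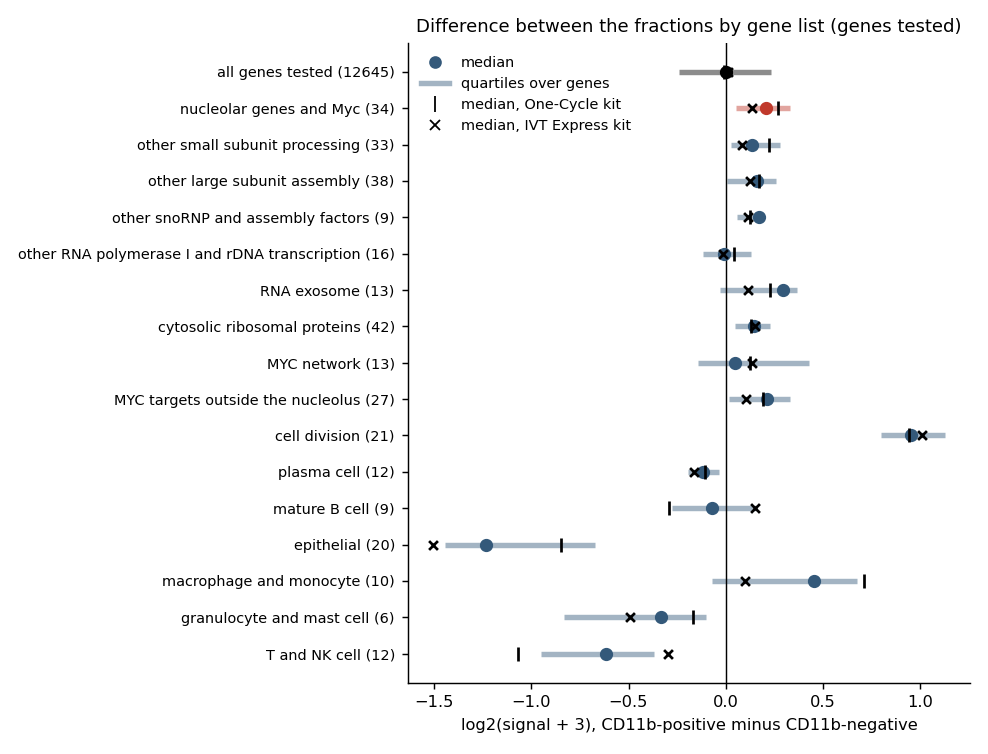
Median log2 difference between the fractions (x axis) for each gene list (y axis, number of genes tested), with the quartiles over genes as bars and the medians of the 2 kits as ticks and crosses. The nucleolar genes and Myc lie at 0.21, most other ribosome lists between 0.14 and 0.29, cell division at 0.95 and epithelial genes at -1.23.

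Genes of cell division and of other cell types also differed between the fractions. For these lists and the markers below, the shares over all genes tested were 31.6% higher and 30.5% lower with both kits. With the block, 3.73% of all genes passed as higher and 4.14% as lower. Of 21 cell division genes tested, 20 were higher with both kits and 17 passed as higher with the block (median 0.95); Mki67, the Ki-67 antigen, differed by 1.00. Their summed signal, One-Cycle first, was 7197 and 4537 for CD11b-negative cells against 12546 and 9052 for CD11b-positive cells. Of 20 gut epithelial genes, 18 were lower with both kits and 16 passed as lower (median -1.23; -0.75 relative to all genes without the CD11b-positive IVT Express array), and their sum was 8327 and 8508 against 4722 and 3380. All 20 passed the low-signal filter, Epcam and Krt8 among them. Of 12 T and NK cell genes, 8 were lower with both kits and 5 passed as lower (median -0.62, but 0.13 relative to all genes without the CD11b-negative One-Cycle array; sums 5659 and 2095 against 2839 and 1447). Of 12 plasma cell genes, 9 were lower with both kits and 1 passed, Sdc1, the CD138 surface marker (-0.61, adjusted p = 8.98e-06). The probe set of Sdc1 may cross-hybridise. The sums of the 12 genes were 47559.5 and 49899.9 against 46005 and 46534.5.

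Of 15 macrophage and monocyte markers, 10 could be tested, and 1 passed as higher, Itgax (0.85, adjusted p = 0.0132), with sums of 474 and 413 against 677 and 528. With both kits 5 were higher and 2 lower, and the median was 0.45, or -0.08 relative to all genes without the CD11b-positive One-Cycle array. C1qb (1.16) and Cd14 (0.73) had arrays that did not overlap and did not pass, Adgre1 and Csf1r differed by -0.11 each, and C1qa, Cx3cr1 and Mrc1 lay below the filter. Of 11 granulocyte and mast cell markers, 6 were tested and 1 passed as lower, Prg2 (-1.43); S100a8 and S100a9 lay below the filter. Of 9 mature B cell genes, 2 were higher and 2 lower with both kits (median -0.07). With the block 1 passed as higher, the MHC class II gene H2-Aa (0.59), on a probe set that may cross-hybridise. Spib (-1.08) and Fcer2a (-0.93) were lower with both kits and did not pass. The sums were 1542 and 1108 against 1752 and 1644 with H2-Aa, and 508 and 311 against 307 and 349 without it. The part of these cells, or of more dividing cells, in the difference of the nucleolar genes was not tested.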

How the data were processed

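The authors deposited intensity values, 1 linear signal per probe set and array, for which the submitters' processing notes name MAS5 and Affymetrix Expression Console. Their versions and settings are not stated in the labels. Array trimmed means ran from 48.6 to 90.3, so signals were not scaled alike, and quantile normalization without the 64 control probe sets was applied.

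Values were log2(signal + 3), and probe sets with a mean log2 value above the 40th percentile (a signal of about 9.51) were kept, with the brightest per gene among the 34945 that name 1 gene (932 name several, 9160 are unnamed here). Symbols came from the platform annotation, with 34741 gene identifiers found in the RefSeq gene table and 0 symbols updated. A 2-sided limma test (version 3.58.1, R 4.3.3) used lmFit, then eBayes with a trend, and a Benjamini-Hochberg threshold of 0.05. It was run on 12645 genes, first without and then with the labelling kit as a block. Both fits were also run on simulated data. The simulated noise was independent and had the variance shared across genes that the blocked fit assumes. That run therefore could not test whether the blocked calls hold in these data. The pairs of the block were set by the labelling kit of each array. Deviations of arrays of the same kit from the mean of their fraction correlated (r = 0.387). Prior degrees of freedom were 4.55 without and 25.6 with the block.

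The genes and lists were chosen with earlier results of these data known. All 35 genes are named; arrays are given for those that passed in either fit or in the unadjusted count, the 3 brightest and Myc, and other genes shown by array (Gar1, Fbl, Polr1b, Wdr75 and Nop2) were chosen after their values were seen. Of each other list, up to 4 genes with the smallest p were to be named, but this rule was not followed throughout. Many of those named were picked because they passed with the block. No gene of the cell division, T and NK cell or snoRNP lists is named by that rule. Nsa2, Mki67, Epcam, Adgre1, Csf1r, Jchain, Xbp1 and those below the filter were added after their values were seen. The promoter rule, an E-box in a gene that passed with the block, found no gene, so the promoters shown were chosen afterwards. Alternatives were 4 scalings, 2 pseudocounts, 2 filters, 2 probe set rules, a fit per probe set, no trend, leaving out each array and, for the blocked fit and added later, a filter on the arithmetic mean.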

Additional observations from a re-analysis of the deposited data

How the results depend on the processing

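The limma fit without the block called 0 of the genes under every alternative run, including leaving out each array. With the kit as a replicate block it called 5; with the block, 22 passed on the deposited scaling, 9 after median centring, 3 with a pseudocount of 1, 3 with the mean of all probe sets and 0 without a trend, and 4 to 6 under the others (6 of 67 probe sets in the fit per probe set). On the deposited scaling and after median centring all genes shifted by 0.42 and 0.21, and 3655 and 1732 genes passed as higher with the block against 154 and 207 lower, where quantile normalization gave 472 and 524. Under these same scalings 33 and 30 of the 34 genes were higher with both kits, beside 66.0% and 52.0% of all genes, instead of 17. Relative to all genes their median stayed between 0.16 and 0.22 under every other setting with all 4 arrays. It was 0.04 without the CD11b-positive One-Cycle array and 0.27 without the CD11b-positive IVT Express array (0.0380 to 0.270 over the 4 arrays left out), with the kits then unbalanced. The count over both kits and the blocked fit were not run without an array, since a kit would then hold 1 fraction. The sign of the difference relative to all genes turned under no alternative for 13 genes, 12 of them higher and 1 lower (Myc). Passing with the block was counted over 13 settings, with the main one included and the fit per probe set left out. Ncl and Npm1 passed in 12 of these 13, Dkc1 in 11, Nhp2 in 10 and Ddx21 in 6. The cause of these changes was not tested.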
